A study of Mus musculus with 165 samples.

Results

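The glutamate and GABA receptor subunit genes are the genes whose products assemble into the receptors for the main excitatory and the main inhibitory transmitter of the brain. They were taken by symbol from the brain count table of a mouse ageing study: every Gria, Grin, Grik, Grid and Grm gene, every GABA-A alpha, beta, gamma, delta, rho, epsilon, theta and pi subunit gene, and both GABA-B receptor genes. This gave 47 genes of the 55471 rows of the table, 26 for glutamate receptors and 21 for GABA receptors. Of the 47 genes, 41 passed the filter on low counts and were tested. The other 6, Gabra6, Gabrr1, Gabrr3, Gabrp, Grin3b and Grm6, are described by level only.

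Glutamate opens 3 families of ion channels, the AMPA receptors (Gria genes), the kainate receptors (Grik) and the NMDA receptors (Grin), and it acts through G protein-coupled metabotropic receptors (Grm), of which group I couples to phospholipase C and groups II and III lower cyclic AMP and often act as brakes on transmitter release. The delta receptors (Grid) belong to the same channel family by sequence and serve mainly as synapse organisers. GABA opens GABA-A receptors, chloride channels of 5 subunits that usually combine alpha, beta and gamma or delta subunits, and it acts through the GABA-B receptor, a G protein-coupled pair of Gabbr1 and Gabbr2. The subunit mix of a receptor sets its kinetics and drug response, and it differs between brain regions.

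The samples were brains of male C57BL/6J/Ukj mice, an inbred laboratory strain, kept for ageing without any other treatment given in the labels, with 15 mice at 3 months, 16 at 9 months, 16 at 15 months, 17 at 24 months and 18 at 28 months. Each library came from 1 mouse, polyadenylated RNA was read as 100-base pairs, and the libraries fell into 3 preparations that each held all 5 ages, with 4 to 7 libraries per age and preparation. Counts assigned to genes ranged from 11460609 to 73390216 per library. Because the tissue was bulk brain, fewer cells of a type and less RNA per cell cannot be told apart.

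Markers of cortex and hippocampus were plentiful in the libraries, while markers of brainstem were scarce: 2 of 10 brainstem markers passed the filter, and their summed level never exceeded 6.09 CPM (counts per 1000000 counts of a library). Markers of hypothalamus were scarce too, and 7 of 10 passed the filter. Their summed level had a median of 6.76 CPM at 3 months and 6.14 CPM at 28 months. Its highest value, 60.9 CPM, was in 28 months replicate 15. Of the 82 libraries, 2 lay farthest from the rest over all 18711 tested genes and over the receptor genes, 28 months replicate 15 and 24 months replicate 13. Over 39 receptor genes their median absolute log2 deviation was 1.12 and 0.495. The second was near the next library, 9 months replicate 4, at 0.374. Another 2, 24 months replicate 6 and 28 months replicate 14, held cerebellar transcripts. Counts of receptor genes, partner genes and markers at 28 against 3 months are given below with and without these libraries where they change.

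Levels were compared between genes as CPM per kilobase of annotated exon, averaged over the 82 libraries. Gria1, an AMPA subunit, stood highest at 164 ± 21.0 CPM per kilobase (SD, n = 82), followed by Gabbr1 at 94.5 ± 4.79. Gabra5 at 59.8 ± 6.68, Gria2 at 52.4 ± 7.50, Grin1 at 52.0 ± 5.86 and Grik5 at 49.1 ± 10.5 were also high, and the step from each of these to the next one named was smaller than the SD of the next. Gabra5 encodes an alpha subunit known for its high level in hippocampus, and Grin1 the subunit that every NMDA receptor needs.

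Within the NMDA family, Grin2b at 22.4 ± 3.58 and Grin2a at 18.7 ± 2.93 CPM per kilobase lay above Grin2c at 13.3 ± 2.44, Grin3a at 4.09 ± 0.785 and Grin2d at 2.74 ± 0.418. Among the metabotropic genes the order was Grm5 at 28.6 ± 4.90, Grm3 at 11.2 ± 2.03, then Grm2 at 9.27 ± 2.57 and Grm7 at 8.89 ± 1.16, which did not differ beyond their spread. The lowest tested genes were Gabrr2 at 0.375 ± 0.278, Gabrq at 0.174 ± 0.0788 and Gabre at 0.0987 ± 0.0439 CPM per kilobase. Of the untested genes, Gabrr1, Grin3b and Gabrr3 did not exceed 0.451 CPM in any library, and Grm6 and Gabrp, a retinal and a mainly peripheral gene, did not exceed 0.109 CPM. A library with 3 counts or fewer was taken to be at the floor, which covers counting error only, and all 82 libraries were at the floor for Grm6.

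**Figure D1:**
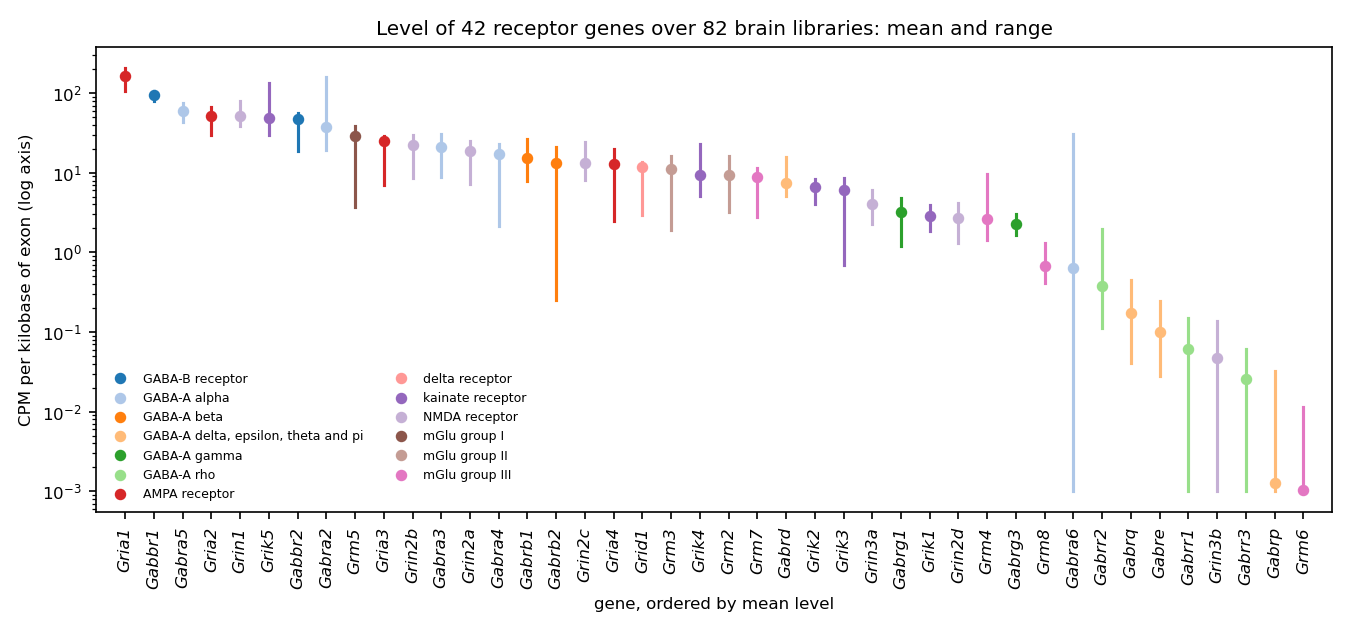
Level of 42 of the 47 receptor genes in CPM per kilobase of exon on a log axis; points are means over 82 libraries and lines run from the lowest to the highest library, coloured by receptor class, with levels under 0.001 drawn at 0.001. Gria1 and Gabbr1 lead, the lower end of the Gabrb2 line and the upper end of the Gabra6 line belong to 2 libraries each, and the Gabra6 line begins at 0.001 because its lowest level is 0.

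Between 3 and 28 months, 6 of the 41 tested receptor genes passed an adjusted p of 0.05, against 28.3% of all genes tested (edgeR quasi-likelihood test, Benjamini-Hochberg over 18711 genes). The background was 16.3% higher and 12% lower. Among the receptor genes, 1 was higher, Gabrr2, and 5 were lower, all glutamate receptor genes: Grm2, Grm3, Grm7, Grin3a and Grin2d. The share of receptor genes called was 14.6%. Their median absolute log2 fold change was 0.11, and that of all genes was 0.14. Of the 41 log2 fold changes, 31 were below 0, with a median of -0.10 against 0.01 for all genes. All 6 called genes had overlapping values at 3 and 28 months.

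**Figure D2:**
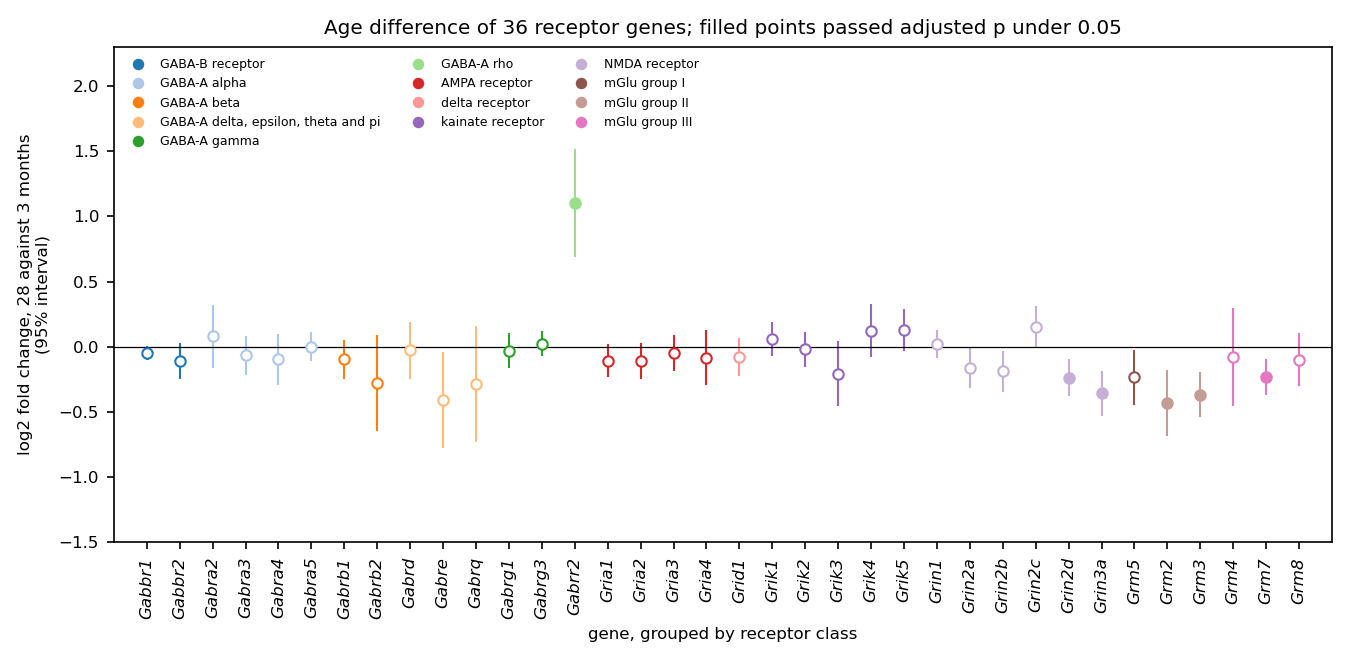
Log2 fold change at 28 against 3 months with its 95% interval for 36 of the 41 tested receptor genes, grouped and coloured by class; filled points passed an adjusted p of 0.05. Gabrr2 is the only filled point above 0, and the 5 filled points below 0 belong to the NMDA and the metabotropic families.

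Both group II metabotropic genes fell. Grm2 encodes a presynaptic receptor that limits glutamate release, and Grm3 a receptor found on neurons and astrocytes. Grm2 (chromosome 9, 106643095 to 106656082, minus strand, GRCm38) ran from 37.7 through a median of 51.7 to 79.9 CPM at 3 months, from 29.8 through 40.7 to 70.7 at 9 months, from 26.5 through 52.7 to 67.4 at 15 months, from 31.2 through 44.1 to 70.6 at 24 months and from 15.9 through 35.0 to 67.8 at 28 months. The ages overlapped widely, and the 9-month median lay below those at 15 and 24 months, so the levels did not follow age in order. The mean was 51.7 ± 10.5 CPM at 3 months (SD, n = 15) and 38.6 ± 12.9 at 28 months (n = 18), a log2 fold change of -0.43 ± 0.13 (SE) with an adjusted p of 0.0087 in edgeR's quasi-likelihood test. Within preparations its log2 fold change was -0.09, -0.75 and -0.54.

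Grm3 (chromosome 5, 9485541 to 9725170, minus strand, GRCm38) ran from 28.2 through a median of 35.3 to 46.6 CPM at 3 months, from 33.8 through 37.5 to 45.6 at 9 months, from 32.4 through 37.5 to 50.01 at 15 months, from 20.9 through 34.6 to 40.6 at 24 months and from 5.86 through 27.1 to 38.2 at 28 months. The first 4 ages were at like levels and the step came at 28 months, where the lowest value belonged to replicate 15. The mean went from 35.2 ± 4.30 CPM at 3 months to 27.2 ± 6.55 at 28 months, a log2 fold change of -0.37 ± 0.09 (SE, adjusted p = 0.00083, edgeR). Against 24 months the log2 fold change was -0.30 ± 0.08, with an adjusted p of 0.052 that missed the threshold in edgeR. Within preparations the log2 fold change from 3 to 28 months was -0.25, -0.28 and -0.56. With a score of clock genes as covariate, described further on, it was -0.17 (adjusted p = 0.13, edgeR) and not called.

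The sequences upstream of the RefSeq starts of the group II pair are shown because both genes fell, and that of Gabrr2 because it was the gene that rose (RefSeq, GRCm38.p6; 39 promoters of 32 of the 47 genes were matched). Capitals mark a motif: the GC-box GGGCGG in the Grm2 and Grm3 sequences and the D-box TTATGTAA in that of Gabrr2. The Gabrr2 sequence is ended 113 bases early, before the start of the gene in the GENCODE annotation. They lie at chr9:106656110-106656359 (minus strand), chr5:9725353-9725602 (minus strand) and chr4:33062862-33062998 (plus strand).
Grm2: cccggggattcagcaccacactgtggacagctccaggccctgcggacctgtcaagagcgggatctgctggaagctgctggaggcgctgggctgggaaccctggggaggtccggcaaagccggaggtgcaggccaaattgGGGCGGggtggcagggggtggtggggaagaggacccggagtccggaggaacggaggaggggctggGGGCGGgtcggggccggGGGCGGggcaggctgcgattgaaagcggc
Grm3: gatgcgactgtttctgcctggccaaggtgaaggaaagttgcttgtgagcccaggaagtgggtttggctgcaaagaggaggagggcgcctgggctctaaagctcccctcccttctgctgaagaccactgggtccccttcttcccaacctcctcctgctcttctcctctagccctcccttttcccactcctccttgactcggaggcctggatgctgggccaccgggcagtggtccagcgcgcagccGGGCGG
Gabrr2: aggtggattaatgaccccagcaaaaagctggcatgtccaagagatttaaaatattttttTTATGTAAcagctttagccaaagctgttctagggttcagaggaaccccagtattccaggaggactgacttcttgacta
In all, 5 motifs were searched on both strands in the 250 bases before each start: the E-box CACGTG, the cyclic AMP element TGACGTCA, the GC-box, the D-box and the TATA-box TATAAA. No motif contains another. The GC-box was in 18 of 39 receptor promoters, 46.2%, and in 32.7% of all 32851 promoters. Grm2 held it 3 times, Grm3 once. The D-box was in 1 receptor promoter, that of Gabrr2, and in 0.819% of all promoters. GC content of these windows was 71.2% for Grm2, 62.4% for Grm3 and 47.6% for Gabrr2, against a median of 58.8% over the receptor promoters and 52.4% over all. Grm7 also held a GC-box, and Grin2d held none of the motifs. A match is only a run of letters and shows no bound factor.

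Of the group III metabotropic genes, Grm7, a low-affinity receptor of presynaptic active zones, was lower, and Grm4 and Grm8 did not pass the test. Grm7 (chromosome 6, 110645581 to 111567230, plus strand, GRCm38) ran from 39.6 through a median of 56.2 to 67.7 CPM at 3 months, from 44.8 through 52.5 to 67.5 at 9 months, from 46.2 through 54.5 to 63.0 at 15 months, from 39.0 through 51.7 to 57.3 at 24 months and from 16.3 through 48.2 to 58.2 at 28 months. The median was lowest at 28 months, where the lowest value was again replicate 15. The mean moved from 55.6 ± 6.41 to 47.2 ± 9.49 CPM, a log2 fold change of -0.23 ± 0.07 (SE, adjusted p = 0.0089, edgeR). Within preparations it was -0.14, -0.22 and -0.35. With the clock gene score as covariate the log2 fold change of Grm7 was -0.02 (adjusted p = 0.86, edgeR), and the call was lost. Grm5, a group I receptor that raises intracellular calcium, had a log2 fold change of -0.23 ± 0.11 (SE) with an adjusted p of 0.095 in edgeR and was not called.

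Of the 6 NMDA genes tested, 2 were lower. Grin3a, a subunit that reduces calcium entry through the receptor (chromosome 4, 49661611 to 49845744, minus strand, GRCm38), ran from 37.5 through a median of 56.2 to 65.3 CPM at 3 months, from 35.6 through 55.8 to 74.8 at 9 months, from 39.8 through 51.7 to 60.7 at 15 months, from 29.0 through 48.0 to 61.9 at 24 months and from 27.6 through 44.0 to 68.0 at 28 months. Its medians declined from each age to the next. The mean was 55.1 ± 8.22 CPM at 3 months and 43.0 ± 9.17 at 28 months, a log2 fold change of -0.36 ± 0.09 (SE, adjusted p = 0.0014, edgeR). Within preparations it was -0.32, -0.31 and -0.46. With the clock gene score as covariate it was -0.20 (adjusted p = 0.11, edgeR) and not called.

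Grin2d, a subunit typical of interneurons and of deep brain regions (chromosome 7, 45831883 to 45878378, minus strand, GRCm38), ran from 12.6 through a median of 19.7 to 22.7 CPM at 3 months, from 12.4 through 18.7 to 28.0 at 9 months, from 17.2 through 19.2 to 22.02 at 15 months, from 12.7 through 17.7 to 22.6 at 24 months and from 8.74 through 16.1 to 20.8 at 28 months. The mean was 19.1 ± 2.50 CPM at 3 months and 16.3 ± 2.89 at 28 months, a log2 fold change of -0.24 ± 0.07 (SE, adjusted p = 0.0095, edgeR). Within preparations it was -0.15, -0.30 and -0.27. Exons of Grin2d, Grm2 and Grm7 overlap an antisense gene over 9.66%, 9.60% and 2.21% of their length, and since the strand setting of the counting is not given in the sources used here, their counts can include reads of the partner. Grin1, Grin2a, Grin2b and Grin2c were not called, with log2 fold changes of 0.02 ± 0.05, -0.16 ± 0.08, -0.19 ± 0.08 and 0.15 ± 0.08 (SE).

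None of the 4 AMPA, 5 kainate and 2 delta receptor genes was called between 3 and 28 months in edgeR, 0 of these 11 had an unadjusted p under 0.05, against 39.8% of all genes, and DESeq2 and limma's voom test also called 0. With a score of clock genes as a covariate (described further on) 3 of them were called: Gria3 at 0.19 ± 0.06 (SE, adjusted p = 0.019, edgeR), Grik2 at 0.20 ± 0.06 (0.0059) and Grik5 at -0.19 ± 0.06 (0.017). With a dentate and hippocampal score as a covariate Grik3 was called, at -0.37 ± 0.13 (SE, adjusted p = 0.028, edgeR). Gria1, the most abundant, ran from 816 through a median of 1033 to 1157 CPM at 3 months and from 651 through 990 to 1099 CPM at 28 months, with a log2 fold change of -0.11 ± 0.07 (SE). With every library the log2 fold changes of the kainate genes ranged from -0.20 for Grik3 to 0.13 for Grik5. Without 28 months replicate 15 that of Grik5 was -0.0048 and that of Grik3 -0.13. Among all 35 receptor genes not called, the 95% interval of the log2 fold change lay within ±0.25 for 18 and within ±0.5 for 32; the 3 with wider intervals were Gabrb2, Gabre and Gabrq. A rise of 41.4% or more, or a fall of 0.5 or more on the log2 scale, was thus outside the interval for those 32 genes.

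Gabrr2 was the GABA receptor gene that rose. It encodes a rho subunit, of the kind best known from retinal bipolar cells (chromosome 4, 33062999 to 33095865, plus strand, GRCm38). It ran from 0.236 through a median of 0.543 to 1.24 CPM at 3 months, from 0.401 through 0.592 to 1.03 at 9 months, from 0.417 through 0.583 to 1.08 at 15 months, from 0.258 through 0.626 to 1.62 at 24 months and from 0.581 through 0.957 to 4.11 at 28 months. The 2 highest values, 4.11 and 3.79 CPM, were both at 28 months, and the 28-month median was also above every other median. The mean was 0.595 ± 0.241 CPM at 3 months and 1.33 ± 1.01 at 28 months, a log2 fold change of 1.11 ± 0.21 (SE, adjusted p = 3.3e-05, edgeR). These are low counts, with a median of 22 per library at 3 months and 34 at 28 months.

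Within preparations the log2 fold change of Gabrr2 was 1.48, 1.00 and 0.78, and leaving out single libraries gave 0.88 to 1.22. Against 24 months it was 0.89 ± 0.20 (SE, adjusted p = 0.012, edgeR), the only receptor gene called there, where 1.09% of all genes were called. Without 28 months replicate 17, the library with 3.79 CPM, it was not called in that comparison. Its neighbour Gabrr1, which lies with it on chromosome 4 within 0.101 megabases, was at or under 0.347 CPM in every library and was not tested.

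Gabre, an epsilon subunit gene on the X chromosome (72255999 to 72274803, minus strand, GRCm38) known from hypothalamus and brainstem, was called at 24 against 3 months, where 10.1% of all genes were. It ran from 0.292 through a median of 0.534 to 1.17 CPM at 3 months, from 0.187 through 0.428 to 0.572 at 9 months, from 0.188 through 0.390 to 0.944 at 15 months, from 0.217 through 0.385 to 0.695 at 24 months and from 0.133 through 0.444 to 1.04 at 28 months. The median was highest at 3 months, and all later ages overlapped with the 3-month mice. The log2 fold change at 24 months was -0.67 ± 0.19 (SE, adjusted p = 0.013, edgeR), and at 28 months -0.41 ± 0.19 with an adjusted p of 0.094. No single preparation called it at 24 months.

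The test of all ages together called 7 of the 41 genes, against 20.6% of all genes (edgeR): Gabbr1, Gabre, Gabrr2, Grin2d, Grin3a, Grm2 and Grm3. Gabbr1, which forms the GABA-binding partner of the GABA-B receptor (chromosome 17, 37045966 to 37075067, plus strand, GRCm38), ran from 686 through a median of 734 to 782 CPM at 3 months, from 685 through 765 to 834 at 9 months, from 693 through 736 to 776 at 15 months, from 617 through 727 to 768 at 24 months and from 667 through 704 to 828 at 28 months. Its median was highest at 9 months and lowest at 28 months, a narrow range. The adjusted p was 0.034 in edgeR, it was 0.067 at most when single libraries were left out, and the call was lost without 28 months replicate 17 or 9 months replicate 1, 12 or 15. The Gabre call was lost without 3 months replicate 4, 5, 10 or 15, and the Grm2 call without 28 months replicate 17.

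**Figure D3:**
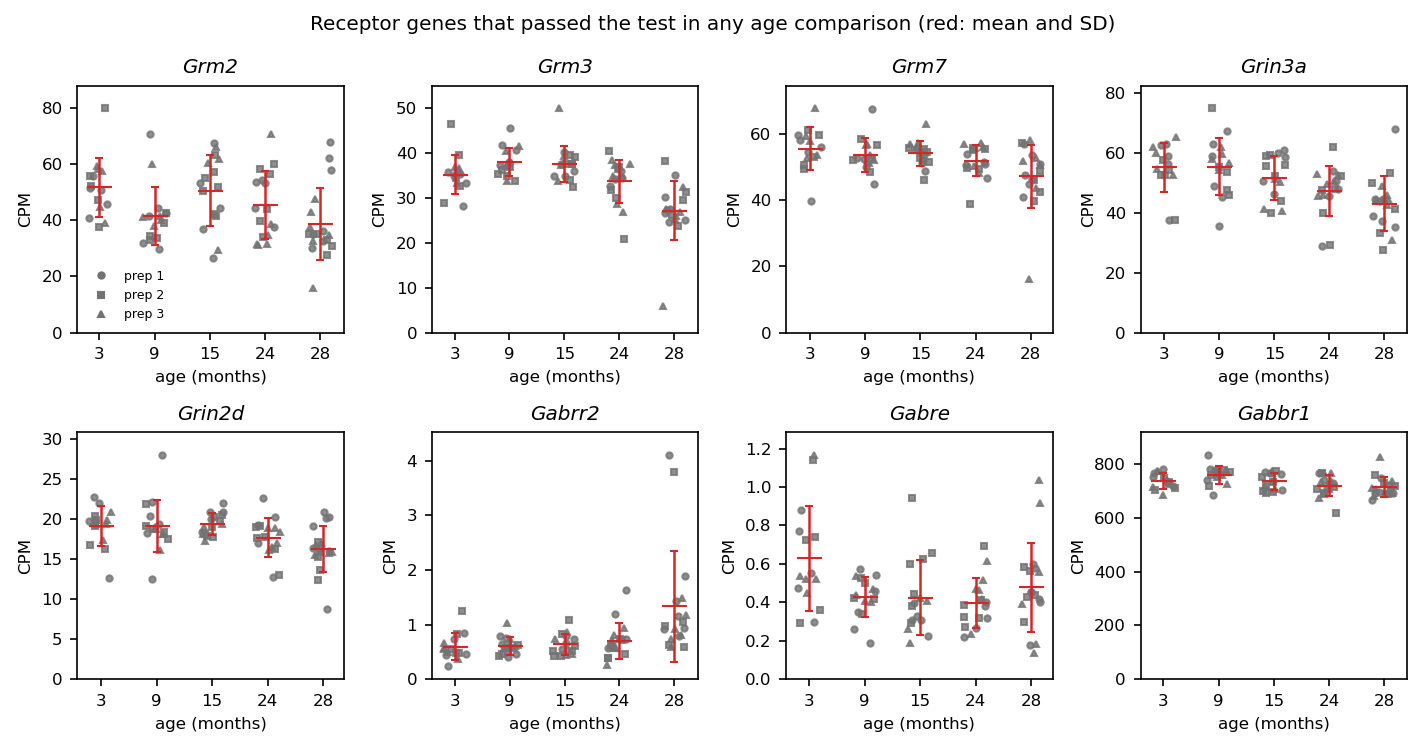
CPM per library at each age for the 8 receptor genes called in any comparison; grey points are mice, with a marker for each preparation, and red bars are mean and SD. The 5 glutamate receptor genes sit lowest at 28 months, Gabrr2 has 2 mice near 4 CPM at 28 months, and every pair of ages overlaps.

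The other GABA-A genes were not called between 3 and 28 months in edgeR: the 5 alpha genes tested, the 3 beta and the 3 gamma genes, Gabrd and Gabrq. Their log2 fold changes ranged from -0.29 for Gabrq to 0.08 for Gabra2. Gabrg1, Gabra2, Gabra4 and Gabrb1 lie in a cluster on chromosome 5 (1.40 megabases). In edgeR with every library none of these 4 genes was called at 28 months, while limma's voom test called Gabra2 and Gabrb1, and also Gabrb2, all lower.

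The earlier ages gave no calls. At 9 against 3 months 0 of 41 were called, against 0.315% of all genes, and 5 had an unadjusted p under 0.05 in edgeR, Gabre, Gabrg1, Gabrq, Grik1 and Grm2, against 7.48% of all genes. At 15 against 3 months 0 were called, against 0.871% of all genes, and 2 had an unadjusted p under 0.05, Gabre and Grin2c, against 7.76% of all genes. At 24 against 15 months 0 were called, against 0.732%, and 0 had an unadjusted p under 0.05, against 8.72% of all genes. DESeq2 and limma's voom test also called 0 in these 3 comparisons.

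Subunit ratios were compared within each library, as differences of log2 CPM, because a swap of subunits changes a receptor without changing the sum. The log2 ratio of Grin2a to Grin2b, whose rise marks the maturation of NMDA receptors, was -0.74 ± 0.16 at 3 months (SD, n = 15) and -0.74 ± 0.26 at 28 months (n = 18), a difference of 0.0041 ± 0.0743 (SE). That of Gria1 to Gria2, the subunit that limits calcium entry through AMPA receptors, was 0.27 ± 0.14 and 0.29 ± 0.14, a difference of 0.02 ± 0.05. That of Gabbr1 to Gabbr2 was 1.19 ± 0.10 and 1.27 ± 0.38, a difference of 0.08 ± 0.09. None of these 3 differences passed the two-sided permutation test within preparations (100000 permutations, raw p 0.642 to 0.960, adjusted p 0.960 for each over the 4 ratios tested). The highest log2 ratio of Gabbr1 to Gabbr2, 2.73, was that of 28 months replicate 15, and without this library the difference became -0.0047.

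That library had the fewest counts, 11460609, and among the 39 receptor genes with a mean above 1 CPM it was the lowest of all libraries for 18 and the highest for 9. Gabrb2 was 2.18 CPM in it against a median of 86.0 over all libraries, Gabra4 13.0 against 108, and Grm5 37.9 against 297. Gabra2 was 1235 CPM against 278, Grik5 696 against 250 and Gabrd 45.6 against 19.9. In 24 months replicate 13 Gabrb2 was 1.59 CPM, the lowest of all, and Gabrd 44.0 CPM. In that library 4 of the 39 genes were more than 2-fold below the median, against 16 in 28 months replicate 15. The median absolute log2 deviation over all 18711 genes was 1.13 and 0.552 in these libraries, the highest and the second highest of 82.

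**Figure D4:**
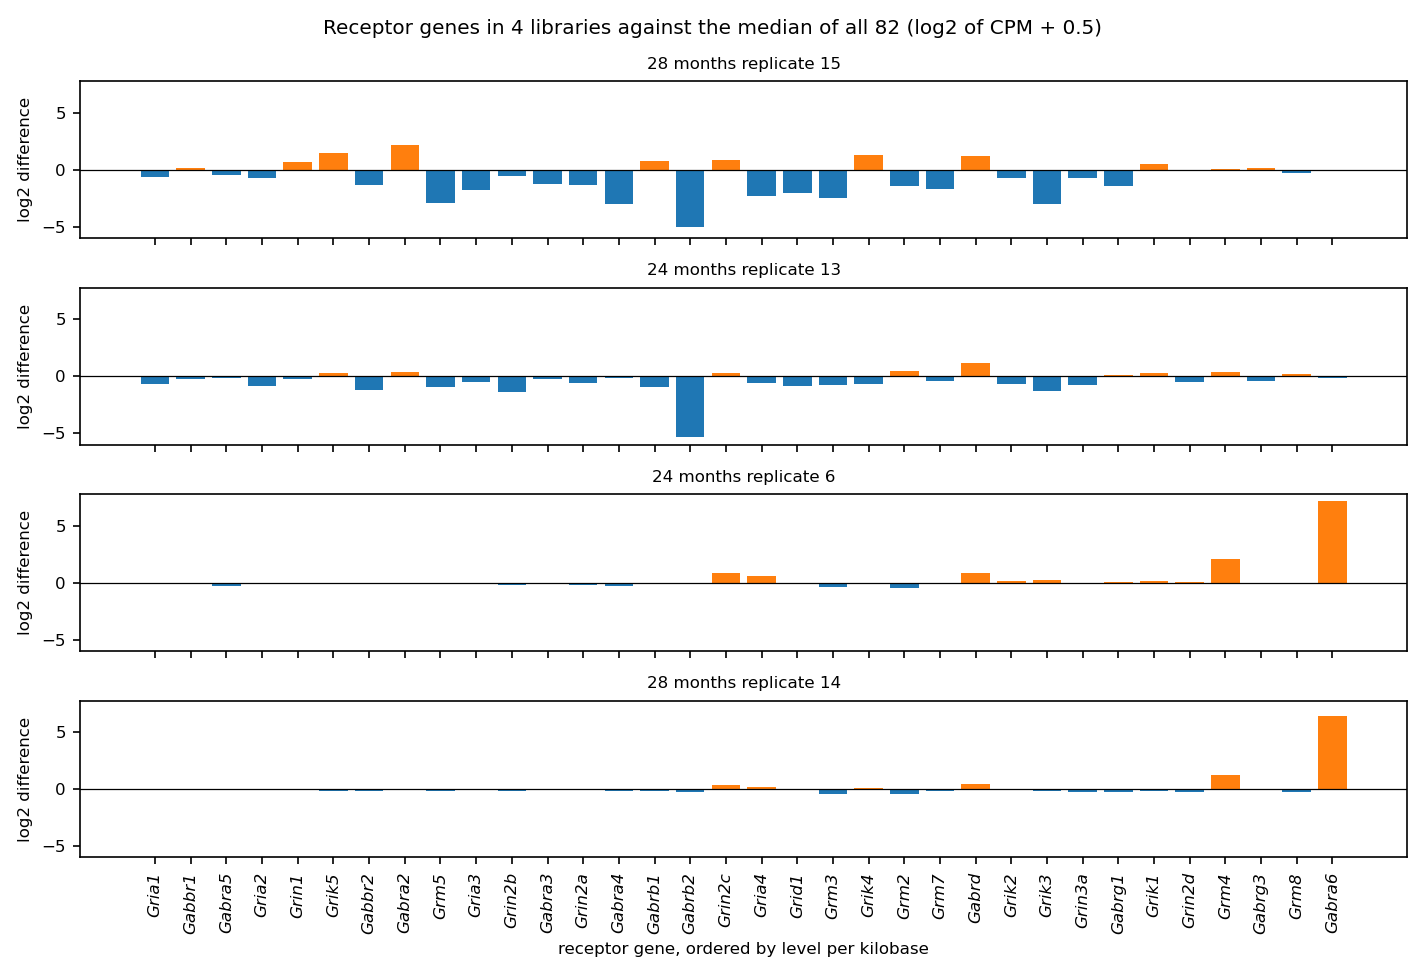
Log2 difference of CPM + 0.5 from the median of all 82 libraries, for 34 receptor genes above 1 CPM on average, in the 2 libraries farthest from the rest and the 2 with cerebellar transcripts; orange bars are higher and blue bars lower. Gabrb2 is about 5 log2 units low in both libraries of the first pair, and Gabra6 more than 6 log2 units high in both of the second.

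Without those 2 libraries, an alternative chosen after seeing the data, 12 of the 41 receptor genes were called at 28 against 3 months, 1 higher and 11 lower, against 34.1% of all genes (17.5% higher, 16.6% lower; edgeR). They included all 6 genes called with every library, and among those added were Gabbr1, Gabra2, Gabrb1, Grin2b and Grm5, these 5 lower by 0.06 to 0.16 on the log2 scale. Grm5 was -0.16 ± 0.06 (SE, adjusted p = 0.033, edgeR) and Gabbr1 -0.06 ± 0.02 (0.028). Gabra2 was -0.16 ± 0.07, while with every library it was 0.08 ± 0.12. Limma's voom with sample quality weights, which keeps all libraries but weights them, called 15, 1 higher and 14 lower, against 41.2% of all genes (20.7% higher, 20.5% lower), and these held all 12. Fold changes of the 6 genes stayed on the same side, with Grm3 at -0.30, Grm2 at -0.39 and Gabrr2 at 1.09 without the 2 libraries.

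Of 9 clock output genes that are higher late in the light phase, 5 were higher at 28 months and 0 lower, against 16.3% and 12% of all genes, with a median log2 fold change of 0.19 (edgeR). Of the 3 tested genes of the opposite phase, 1 was lower, Arntl, with a median of -0.10. Without the 2 libraries least like the others, 7 of the 9 were higher and 1, Per2, lower, against 17.5% and 16.6% of all genes. The labels give no time of day. A score of clock genes had a median of -0.29 at 3 months and 0.81 at 28 months, with ranges of -0.72 to -0.05 and -0.66 to 4.43, where 4.43 was 28 months replicate 15. With this score as a covariate 7 receptor genes were called at 28 against 3 months, against 29.9% of all genes, and 3 of them, Gabrr2, Grin2d and Grm2, were among the 6. The other 4 were Gria3 and Grik2, both higher, and Grik5 and Gabrd, both lower. Grm3, Grm7 and Grin3a, as given above, were not called. When the 2 libraries were also left out, 5 were called, against 28.8% of all genes: Gabrr2, Grik2, Grin2d, Grm2 and Grm3. The log2 fold change of Grm3 was then -0.27 (adjusted p = 0.00093, edgeR), that of Grm7 -0.09 (0.18) and that of Grin3a -0.22 (0.082).

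Gabra6, the alpha subunit of cerebellar granule cells, separated 2 libraries from all others. It was 76.0 CPM in 24 months replicate 6 and 45.9 CPM in 28 months replicate 14, against at most 1.36 CPM and a median of 0.0517 CPM elsewhere. Cbln3, a granule cell gene, was 174 and 101 CPM in the same libraries and at most 3.24 CPM in the others. Grm4, a receptor gene also known from cerebellum, was 58.6 and 34.0 CPM there against a median of 14.0 CPM. Without these 2 libraries 7 receptor genes were called at 28 against 3 months, among them the same 6, against 28.5% of all genes, an alternative chosen after seeing the data. When the filter was dropped, or when any of 12 libraries of 3 months was left out, which moved the filter, Gabra6 was tested and called at 24 against 3 months, where 1 library held 76.0 CPM and the median of its age was 0.0473 CPM. Each of these also called it at 28 against 3 months, and dropping the filter called it at 24 against 15 months too.

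Levels of receptor genes were also set beside regional markers from mouse to mouse. After removing age and preparation means, log2 CPM of the 41 genes was correlated with scores of 6 regions over 82 libraries, 246 relations in all, and 79 passed an adjusted p of 0.05 by both Pearson's r and Spearman's rho (100000 permutations within age and preparation; the smallest p they can give is 1e-05). Per region, 19 genes passed for dentate gyrus and hippocampus, 19 for thalamus, 16 for striatum, 16 for hypothalamus, 5 for cerebellum and 4 for olfactory bulb. Left without the 2 libraries farthest from the median score, 15, 18, 16, 10, 5 and 0 of these still passed by Pearson's r. For cerebellum the 2 left out were 24 months replicate 6 and 28 months replicate 14, those with cerebellar transcripts. Elsewhere Gabra6 was at most 1.36 CPM, while the cerebellar list still summed to a median of 380 CPM at 3 months. The 5 relations left there thus cannot be tied to cerebellar tissue. As a description, r and rho were both of size 0.3 or more in 61 of the 246 relations, 24.8%, and in 9.6% of the relations of all genes tested with the same scores, each region's own markers left out. For dentate gyrus and hippocampus these shares were 36.6% and 12.7%, and the median size of r was 0.26 and 0.14. For hypothalamus they were 34.1% and 11.0%, with a median size of r of 0.31 and 0.29. For thalamus the shares were 34.1% and 15.2%, and for striatum 29.3% and 13.9%. For olfactory bulb they were 7.32% and 3.73%, and for cerebellum 7.32% and 1.096%. In cerebellum the median size of r was 0.157 for the receptor genes and 0.169 for all genes. The counts per region that passed the permutation tests have no share of all genes beside them. All relations share the same libraries, and whether receptor genes differ from other genes in this was not tested.

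Gabra5 rose with the dentate and hippocampal score, with r = 0.75 (permutation p = 1e-05, adjusted 0.000164) and rho = 0.74 (permutation p = 1e-05, adjusted 0.000154), and r = 0.77 without the 2 farthest libraries. Gria1 (r = 0.63, rho = 0.57) and Grin2a (r = 0.57, rho = 0.58) did so too, each with the same permutation and adjusted p, and had r of 0.63 and 0.58 without those libraries. Grm8 ran the other way, with r = -0.55 (permutation p = 2e-05, adjusted 0.000259) and rho = -0.47 (permutation p = 7e-05, adjusted 0.000689), and r = -0.51 without the farthest libraries. Grik1 (r = -0.53, rho = -0.48) and Grm4 (r = -0.51, rho = -0.44) did likewise, with permutation p of 1e-05 to 0.00029. With the thalamus score, Grm2 had r = 0.55 and rho = 0.48 (permutation p = 1e-05 for both, adjusted 0.000164 and 0.000154). It had r = 0.61 without the 2 libraries farthest on that score, 15 months replicate 4 and 3 months replicate 9. Grik4 had r = -0.57 and rho = -0.60 with the thalamus score, with the same p as Grm2. No correlation was repeated without both 28 months replicate 15 and 24 months replicate 13. The first of these was left out only for olfactory bulb and hypothalamus, where it was among the farthest.

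**Figure D5:**
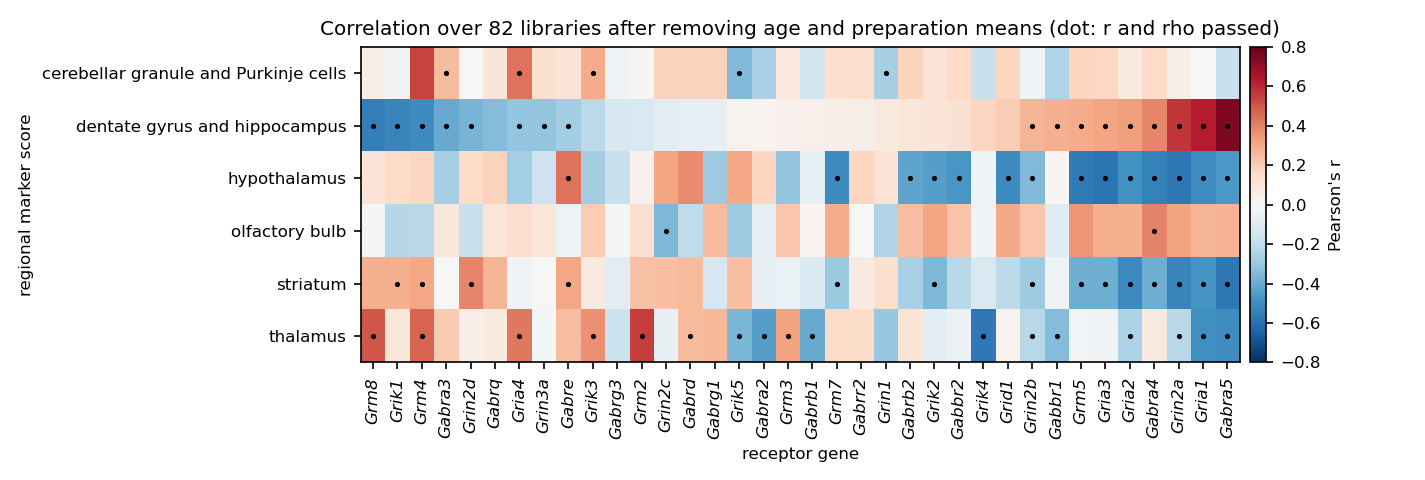
Pearson's r between log2 CPM of 36 receptor genes and 6 regional marker scores over 82 libraries, after removing age and preparation means; red is positive, blue negative, and dots mark relations that passed by both r and rho. Columns are ordered by the dentate and hippocampal row, from Grm8 at -0.55 to Gabra5 at 0.75.

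Of the 6 genes called at 28 months, Grin2d and Grin3a were lower where the dentate and hippocampal score was higher. Grin2d had r = -0.37 (permutation p = 0.0015, adjusted 0.0071) and rho = -0.47 (permutation p = 9e-05, adjusted 0.000791). Grin3a had r = -0.31 (permutation p = 0.0064, adjusted 0.023) and rho = -0.30 (permutation p = 0.0042, adjusted 0.014), and the relation missed the threshold without the 2 farthest libraries (r = -0.26, adjusted permutation p = 0.051). Grm2, as above, and Grm3 rose with the thalamus score; Grm3 had r = 0.32 (permutation p = 0.00034, adjusted 0.0023) and rho = 0.38 (permutation p = 0.0017, adjusted 0.0075). Grm7 passed for hypothalamus with r = -0.50 (permutation p = 0.00078, adjusted 0.0043) and rho = -0.30 (permutation p = 0.0088, adjusted 0.028), but not without the 2 farthest libraries (r = -0.23), one of which was 28 months replicate 15. Gabrr2 passed for no region. The dentate and hippocampal markers themselves were lower with age, 4 of 10 called and a median log2 fold change of -0.28 at 28 months (3 called without either pair of libraries). With that score as a covariate, chosen after seeing the data, 11 receptor genes were called, against 22.2% of all genes: all 6, and Gabra5 higher and Gabre, Grik3, Grm4 and Grm8 lower. Markers of the other scored regions were read against the same 16.3% of all genes higher and 12% lower (edgeR). For olfactory bulb 3 of 8 tested markers were lower and 1 higher, with a median log2 fold change of -0.09. For striatum and for thalamus 1 of 10 was lower, with medians of -0.08 and -0.05, and for striatum 3 were lower without the 2 libraries least like the others. For hypothalamus 0 of 7 were called, with a median of -0.03. Without the 2 libraries least like the others 1 of these 7, Cartpt, was lower, with a median of -0.38. For cerebellum 2 of 11 were higher, or 0 higher and 2 lower, Car8 and Neurod1, without the libraries with cerebellar transcripts. The libraries left held at most 1.36 CPM of Gabra6, so these 2 markers cannot be tied to cerebellar tissue.

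Genes that work with the receptors were read against the same background, 12% of all genes lower and 16.3% higher at 28 months. Of 18 auxiliary subunits of glutamate receptors 3 were lower at 28 months and 0 higher (edgeR): Neto2, a kainate receptor partner, fell from 66.1 ± 9.11 to 51.7 ± 8.47 CPM (log2 fold change -0.35 ± 0.07, SE), and Shisa9, an AMPA receptor partner, from 59.6 ± 5.99 to 48.1 ± 10.5 CPM (-0.31 ± 0.08). Of 20 postsynaptic scaffold genes 4 were lower and 1 higher. Homer1, which ties group I metabotropic receptors to calcium stores and has a short form induced by activity, fell from 146 ± 21.7 to 102 ± 19.7 CPM (-0.51 ± 0.08), and Homer2 from 118 ± 11.1 to 100.4 ± 21.4 CPM (-0.23 ± 0.08). Dlgap1 was higher, with a log2 fold change of 0.15 ± 0.05.

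Of 17 genes for anchoring and assembly of GABA receptors 1 was lower, Kctd12b (-0.30 ± 0.10), in edgeR. The 8 genes for GABA synthesis, release and uptake had log2 fold changes from -0.20 to 0.09 and adjusted p of 0.098 or more. Of 15 glutamate transporters and enzymes, Slc1a6, a transporter of Purkinje cells (0.31 ± 0.11), and Glul, the glutamine synthetase of astrocytes (0.14 ± 0.05), were higher and Slc38a5 (-0.63 ± 0.15) lower. The lists' median log2 fold changes lay between -0.11 and 0.00, against 0.01 for all genes.

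Without the 2 libraries least like the others, where 17.5% of all genes were higher and 16.6% lower (edgeR), 0 auxiliary subunits were higher and 6 lower, 1 scaffold gene was higher and 5 lower, and 4 anchoring and assembly genes were lower. Slc1a6 was then not called (0.20 ± 0.09, SE, adjusted p = 0.071, edgeR), while Glul and Slc38a5 were, and Gad1, which makes GABA, was higher (0.11 ± 0.04, adjusted p = 0.032). Without the 2 libraries that held cerebellar transcripts, where 28.5% of all genes were called, the auxiliary subunit Cnih3 was also higher, and the other counts of these lists did not change.

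Cell type markers are given against the same shares of all genes, 16.3% higher and 12% lower. At 28 months 7 of 8 microglial markers were higher, 4 of 8 astrocyte markers were higher and 2 lower, 2 of 8 oligodendrocyte precursor markers were lower, and 2 of 9 general neuron markers were lower with 0 higher. Of 8 markers of GABAergic interneurons 2 were higher, Pvalb and Vip, and 0 lower in edgeR, with a median log2 fold change of 0.14. Their summed level had a median of 571 CPM at 3 months and 575 CPM at 28 months, and the highest, 2134 CPM, was in 28 months replicate 15. Without the 2 libraries least like the others Pvalb and Vip were still higher, and the median log2 fold change was 0.03. Without those with cerebellar transcripts 3 were higher, Npy, Pvalb and Vip, and 1 lower, Reln. Grin2d, introduced above as typical of interneurons, was lower. The summed neuron markers ran from 6528 through a median of 7447 to 8108 CPM at 3 months and from 4583 through 7286 to 8048 CPM at 28 months. Without the 2 libraries least like the others 8 microglial markers and 3 astrocyte markers were higher, 3 oligodendrocyte precursor markers were lower, and 1 general neuron marker, Nefm, was lower. Nefm was also the single neuron marker called without the cerebellar libraries. Of 5 red blood cell markers 3 were higher (median log2 fold change 1.06), and their summed level ran from 29.9 through a median of 75.3 to 234 CPM at 3 months and from 34.4 through 129 to 725 CPM at 28 months, highest in replicate 15. Both tested pituitary markers, Gh and Pomc, were lower, while the summed level of the pituitary list had a median of 1.18 CPM at 3 months, with a highest value of 656 CPM in replicate 5, and of 1.14 CPM at 28 months. The part of these markers in the receptor results was not tested.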

How the data were processed

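Brain RNA of 82 mice was sequenced. Per the submitters' processing notes, the authors used cutadapt 2.8, HISAT2 2.1.0, SAMtools 1.9 and featureCounts of Subread 2.0.1 with the genome GRCm38.p6 (mm10); the annotation release, strand setting and treatment of shared reads are not given in the sources used here. The authors deposited raw counts per gene, 55471 identifiers by 82 libraries, of which 55144 had a symbol in the gene name table. All columns were matched to labels by library name (0 columns left over). The liver table was not used here.

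Counts were fitted with edgeR 4.0.16 in R 4.3.3: filterByExpr by age (18711 genes kept), TMM scaling, a quasi-likelihood model (glmQLFit, glmQLFTest) with age and preparation over all 82 libraries, two-sided tests, Benjamini-Hochberg adjustment over all genes, threshold 0.05. SE is the absolute log2 fold change over the square root of F. CPM are of TMM-scaled libraries; log2 CPM used a prior count of 2. Positions and exon lengths came from GENCODE vM21 on the same build, promoters from RefSeq. Ratios and regional correlations used permutation tests in Python. A regional score is the mean standardised log2 CPM of that region's markers, without receptor genes. The procedure was tested on simulated data. Alternatives were DESeq2 1.42.0, limma 3.58.1 with voom quality weights, RLE scaling, no filter, 2 ages alone, single preparations, no preparation term, a replicate block, covariates and left-out libraries.

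Values of some single receptor genes, and 1 ratio, are not reported here; counts include them. The receptor genes and lists were chosen with earlier results of these data known. Named genes are the receptor genes called at 28 months or over all ages, in full; others by range, to complete a family, or for their level or library; and pathway genes called at 28 months, at most the 2 highest and 2 lowest of a list. The genes named from the earlier ages, from covariates, from left-out libraries and from the correlations, and the interneuron and clock markers, were chosen after their values were seen. Each library is 1 mouse, and no pair agreed within sampling noise. Replicate numbers do not pair mice across ages: over 157 same-numbered pairs the median correlation of deviations was 0.0237.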

Additional observations from a re-analysis of the deposited data

How the results depend on the processing

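The count of 6 receptor genes at 28 against 3 months stayed within 1.5 times under RLE scaling, no filter, DESeq2, 2 ages alone, no preparation term, the clock and cerebellar scores, edgeR without its legacy option and removal of the cerebellar libraries, and was 6 to 9 with single libraries left out. Shares of all genes called are in parentheses. They are not given here for the settings that stayed within 1.5 times or for single libraries left out. Those counts are thus not set against a background. The 6 (28.3%) became 15 with voom (41.2%), 2, 1 and 2 in the preparations alone (10.6%, 2.0% and 6.36%, fewer samples), 11 with the dentate score (22.2%) and 12 without the 2 libraries least like the others (34.1%). Over all ages, 7 (20.6%) became 21 with voom (43.5%) and 2, 3 and 1 in the preparations (4.84%, 1.42% and 1.99%), and 5 to 9 with single libraries left out. At 24 against 3 months, 1 (10.1%) became 2 with no filter, DESeq2, 2 ages alone, no preparation term, no legacy option, the dentate score, and without the 2 libraries with or without the clock score (3.89% to 17.1%), 3 with voom (26.5%), 0 in each preparation (0.486% to 1.19%), and 1 to 3 with single libraries left out. At 28 against 24 months, 1 (1.09%) became 2 with DESeq2, no preparation term, the replicate block, no legacy option, the dentate score and without either pair of libraries, also without the least-like pair with the clock score (1.01% to 5.48%), 3 with voom (4.8%), 8 with the clock score (19.9%), 0 with 2 ages alone (0.0111%) and in each preparation (at most 0.0429%), and 0 to 2 with single libraries left out. At 24 against 15 months 0 (0.732%) became 1 with no filter (0.255%); the leave-one-out range there and at 9 and 15 against 3 months was 0 to 0.

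With replicate number as a block the count at 28 against 3 months was 8. The share of all genes called with that block is not given here, so this count has no background beside it. Numbers are shared by mice of different ages without pairing them, and 7 of 82 libraries correlated best with their own number. For the 8 genes called at 28 months or over all ages, 112 of 136 fold changes under these alternatives kept direction and side of the threshold, 20 missed it, 4 newly passed it and 0 reversed. Other receptor genes did change sign and were then called, among them Gabra2 from 0.08 to -0.16 without the 2 libraries least like the others and with voom, and, with the clock score, Grik5 from 0.13 to -0.19, Gria3 from -0.04 to 0.19 and Grik2 from -0.02 to 0.20. The log2 ratios, none called, changed sign for Grin2a to Grin2b in preparations 1 and 3 (-0.0349 and -0.0688), and in preparation 1 for Gria1 to Gria2 (-0.0764) and Gabbr1 to Gabbr2 (-0.0293). Without 28 months replicate 15, also when 24 months replicate 13 was left out, Gabbr1 to Gabbr2 became -0.0047. Leaving out 28 months replicate 14 or 15 gave 0.0826 and -0.0047 for it. Causes were not tested. Correlations that passed numbered 70 without the farthest libraries and 79 with a prior count of 0.5, against 79. For genes under 1 CPM, depth limits precision.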
